A study of Mus musculus with 14 samples.

Results

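Nr4a1, Nr4a2 and Nr4a3 were followed in the hippocampal RNA of 7 mice labelled LPAR2-/- and 7 wild-type (WT) mice. These 3 genes are the whole Nr4a family of orphan nuclear receptors, were chosen by their symbols among the 24421 genes of the count table, and were all among the 14897 genes abundant enough to be tested. All 14 mice were naive males of strain 129.C57Bl6, with 1 library each. The line lacks the second part of exon 2 of Lpar2, a receptor for lysophosphatidic acid, and per the study's methods the knockouts were bred as homozygotes. The WT mice came from a separate colony whose background mixes C57BL/6 and 129/SvJ. Genotype and colony therefore cannot be told apart. Sources differ on age (10 to 12 weeks on the labels, middle aged to aged in the series description), which is therefore unknown. The labels and methods name the hippocampus as the tissue, and the study's results name the dentate gyrus.

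Nr4a1 (Nur77), Nr4a2 (Nurr1) and Nr4a3 (Nor1) are transcription factors whose ligand pocket is closed by bulky side chains, so that their activity is thought to follow their amount rather than a hormone. All are immediate early genes, which means that calcium, cAMP and MAP kinase signals in active neurons switch on their transcription within minutes through CREB and related factors, without new protein synthesis. In the hippocampus they are induced by learning, and blocking the family impairs long-term memory. Nr4a2 is also needed for midbrain dopamine neurons and marks the claustrum and deep cortical layers.

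The windows before the transcription starts are shown because they hold the DNA through which these signals reach the genes. Each is the stretch of 250 bases before the start of the gene, taken from RefSeq on GRCm38.p6 (mm10), which held an entry for 3 of 3 members. The Nr4a1 window is chr15:101266596-101266845 on the plus strand, that of Nr4a2 is chr2:57124004-57124253 on the minus strand, and that of Nr4a3 is chr4:48045055-48045304 on the plus strand. Capitals mark TGACG, the core of the element bound by CREB, and CGTCA, which is the same core read on the other strand.
Nr4a1: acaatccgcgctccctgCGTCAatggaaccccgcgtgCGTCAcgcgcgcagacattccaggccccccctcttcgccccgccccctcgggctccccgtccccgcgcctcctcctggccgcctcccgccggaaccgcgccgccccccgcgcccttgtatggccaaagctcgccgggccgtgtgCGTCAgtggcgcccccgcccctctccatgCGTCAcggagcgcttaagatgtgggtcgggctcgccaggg
Nr4a2: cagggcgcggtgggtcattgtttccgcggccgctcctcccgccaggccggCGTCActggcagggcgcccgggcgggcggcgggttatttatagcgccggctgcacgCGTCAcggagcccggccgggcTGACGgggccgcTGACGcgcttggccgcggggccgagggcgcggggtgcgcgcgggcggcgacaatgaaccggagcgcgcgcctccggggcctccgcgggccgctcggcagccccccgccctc
Nr4a3: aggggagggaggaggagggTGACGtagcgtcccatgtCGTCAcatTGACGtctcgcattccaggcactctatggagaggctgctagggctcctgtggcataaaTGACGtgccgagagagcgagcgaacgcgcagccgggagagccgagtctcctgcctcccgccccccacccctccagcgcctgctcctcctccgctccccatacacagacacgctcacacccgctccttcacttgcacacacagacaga

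Each window held 4 matches to TGACG on the 2 strands together. Of 32851 promoter windows of this length, 45 (0.137%) held at least 4 matches, and 17.8% held at least 1. The windows of the members are rich in G and C (74.4% for Nr4a1, 80% for Nr4a2 and 63.6% for Nr4a3), and among the 9178 windows with a GC content of 60% or more, 0.370% held at least 4 matches. In Nr4a1 all 4 matches lay on the minus strand, the nearest of them 40 to 36 bases before the start. In Nr4a2 the matches lay between 200 and 107 bases and in Nr4a3 between 231 and 143 bases before the start. Neither the full palindrome TGACGTCA, which contains the core on both strands and was found in 1.55% of all windows, nor AAAGGTCA, the element to which Nr4a proteins themselves bind and which was found in 1.34%, occurred in any of the 3 windows. Among the 6 gene lists described below, none of the genes with an entry held 4 or more cores, including 0 of 20 activity-induced transcription factors and 0 of 22 activity-induced effectors. A match in sequence is a description of these bases and no evidence of binding.

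Before the members, the libraries themselves were examined. Between 15434620 and 23258949 reads per mouse labelled LPAR2-/- and between 16373410 and 21992980 reads per WT mouse were counted on genes. Levels are given as CPM, the counts of a gene per 1000000 counts of the library after TMM normalization. Lpar2 went against the labels and was higher in mice labelled LPAR2-/- (9.55 ± 1.41 CPM, SD, n = 7) than in WT mice (2.36 ± 0.676, n = 7), with a log2 fold change of 2.01 (SE 0.157, edgeR quasi-likelihood test, Benjamini-Hochberg adjusted p = 8.2e-07). The counts cover the whole gene and do not show which exon the reads came from, and every direction below refers to the genotype on the label. Mice 6 and 7 labelled LPAR2-/- lay at the low end of the second principal component of all genes, which took 19.5% of the variance. Their scores were −25.6 and −21.8, and the next mouse, WT 6, had −15.5. Markers of hippocampal neurons were present in every mouse, with summed levels of 484 to 762 CPM for the dentate gyrus, 239 to 373 CPM for CA3 and 65.4 to 205 CPM for CA1.

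The first question was whether the Nr4a genes, as reporters of neuronal activity, differ between the genotypes. Nr4a1 and Nr4a2 were lower in mice labelled LPAR2-/-, each with a log2 fold change near −0.6, while no difference passed the test for Nr4a3. Over all 14897 genes, 6.77% were called at an adjusted p under 0.05 (3.46% lower and 3.32% higher), and the groups did not overlap for 1.77%. In tissue RNA of this kind, fewer cells of a type and less RNA per cell cannot be told apart.

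Nr4a1, the member most widely used as a reporter of cell activation, reached 14.7, 17.8 and 21.0 CPM (lowest, median and highest) in mice labelled LPAR2-/-, from 229 to 485 reads. In WT mice it reached 16.2, 29.1 and 39.4 CPM, from 293 to 787 reads. The groups overlapped: 5 WT mice lay above every mouse labelled LPAR2-/-, whereas WT mice 3 and 7 (16.2 and 17.1 CPM) lay among them. The means were 17.2 ± 2.32 and 27.1 ± 8.10 CPM (SD, n = 7 each), with a log2 fold change of −0.65 (SE 0.173, edgeR adjusted p = 0.0360). An exact two-sided permutation test over the 3432 arrangements of 7 mice against 7 gave p = 0.0122. The call was a narrow one. Adjusted p was 0.0778 with the mouse number as a block, 0.0527 with limma and 0.0557 without the filter on low counts. With DESeq2 the call held (adjusted p = 0.00269). It also held in edgeR with DESeq2 size factors (adjusted p = 0.0355), upper quartile scaling (0.0412) or at least 10 counts in every library (0.0356). The call passed in 4 of 14 fits that each left out 1 mouse, namely those without LPAR2-/- 3 (adjusted p = 0.0327), WT 1 (0.0497), WT 3 (0.0118) or WT 7 (0.0134), and it missed the threshold in the other 10, where adjusted p ran from 0.0570 without LPAR2-/- 5 to 0.0750 without WT 2 and the log2 fold change from −0.67 to −0.54.

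Nr4a2 was lower without any overlap between the groups. It reached 18.5, 19.3 and 22.8 CPM (lowest, median and highest) in mice labelled LPAR2-/-, from 295 to 526 reads, and 22.9, 29.5 and 39.9 CPM in WT mice, from 392 to 876 reads. WT mice 2 and 4 were the highest (39.9 and 39.7 CPM), and WT 7 was the lowest of its group and lay just above LPAR2-/- 3. The means were 20.2 ± 1.63 and 31.2 ± 6.40 CPM (SD, n = 7 each), with a log2 fold change of −0.63 (SE 0.109, edgeR adjusted p = 0.00320). The exact two-sided permutation test gave p = 0.000583, the smallest that 7 mice against 7 allow. The call held in 14 of 14 fits that each left out 1 mouse, with log2 fold changes from −0.69 to −0.56 and adjusted p from 0.000737 to 0.00958.

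Nr4a3 was the most abundant member and the most variable in mice labelled LPAR2-/-. It reached 44.0, 87.9 and 110.5 CPM (lowest, median and highest) there, from 737 to 2552 reads, and 67.3, 87.3 and 113 CPM in WT mice, from 1408 to 2307 reads. Mice 6 and 7 labelled LPAR2-/- (44.0 and 52.7 CPM) lay below every WT mouse, and the other 5 lay within the WT range. The means were 78.8 ± 23.4 and 90.9 ± 16.4 CPM (SD, n = 7 each). The log2 fold change of −0.20 (SE 0.186) missed the threshold (edgeR adjusted p = 0.562, exact two-sided permutation p = 0.260). With the same mice 6 and 7 left out, an alternative chosen after the data were seen, the log2 fold change of Nr4a3 was 0.00461 (adjusted p = 0.987). That of Nr4a1 was then −0.58 (adjusted p = 0.105) and missed the threshold, and that of Nr4a2 was −0.59 (adjusted p = 0.0174).

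**Figure D1:**
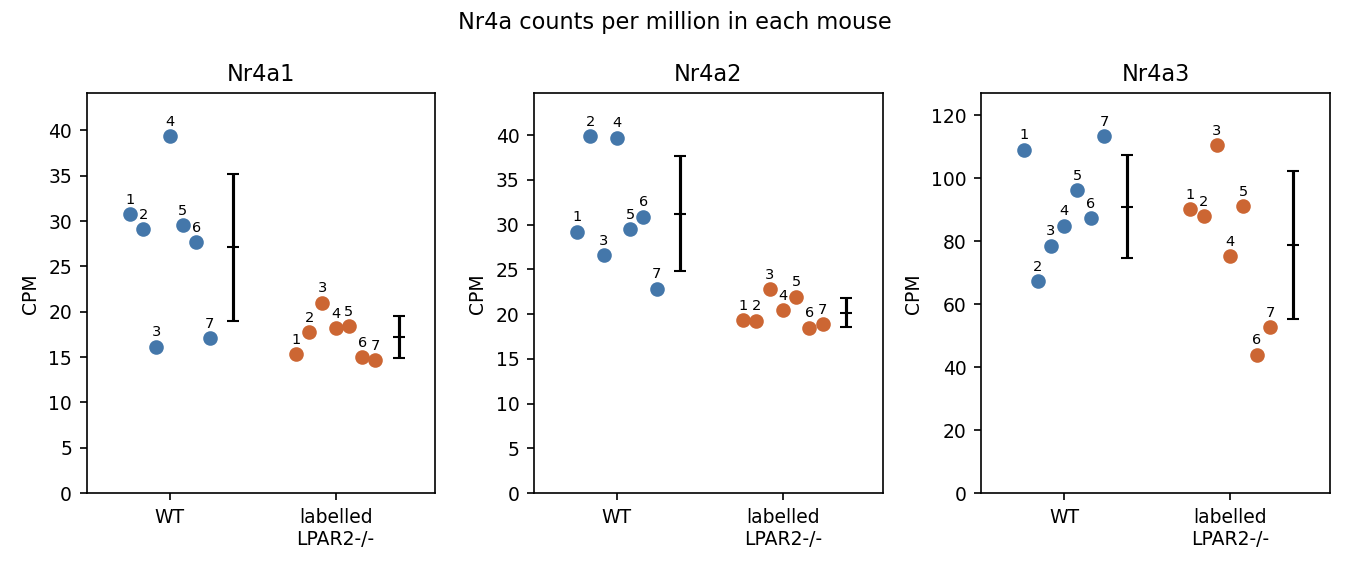
CPM (vertical axes, starting at 0) of Nr4a1, Nr4a2 and Nr4a3 in each mouse, numbered as in the labels, with WT in blue and mice labelled LPAR2-/- in orange; black bars are the mean ± SD of 7 mice. Nr4a2 does not overlap between the groups, Nr4a1 overlaps through WT mice 3 and 7, and Nr4a3 is low in mice 6 and 7 labelled LPAR2-/- (44.0 and 52.7 CPM).

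A call for 2 members and none for the third does not show that the members differ, so the ratio of each pair was compared between the genotypes. The log2 ratio of Nr4a1 to Nr4a2 differed by 0.00442 (labelled LPAR2-/- minus WT, SE 0.118, exact two-sided permutation p = 0.973), that of Nr4a1 to Nr4a3 by −0.35 (SE 0.252, exact p = 0.184) and that of Nr4a2 to Nr4a3 by −0.36 (SE 0.244, exact p = 0.167). After adjustment over the 3 pairs the lowest p was 0.276. Unequal change of the members was therefore not shown by 7 mice per group.

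The members varied more between mice than most genes in WT mice, and less uniformly so in mice labelled LPAR2-/-. In WT mice the coefficient of variation was 29.9% for Nr4a1, 20.5% for Nr4a2 and 18.1% for Nr4a3. Among the 7693 genes with 10 to 100 CPM the median was 7.10% in WT mice, and 98.9%, 96.1% and 94.2% of these genes varied less than the respective member. In mice labelled LPAR2-/- the coefficient was 13.5% for Nr4a1 and 8.09% for Nr4a2, beside a median of 7.62% over those genes, of which 83.7% and 54.6% varied less. Nr4a3 stood at 29.6% in mice labelled LPAR2-/-, above 97.7% of those genes. The genotype difference in spread was not tested.

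Levels of different genes were compared per kilobase of exon (CPM per kb). Nr4a1 spans chr15:101266846-101274794 with 2476 exonic bases, Nr4a2 spans chr2:57107226-57124003 with 3347, and Nr4a3 spans chr4:48045305-48086446 with 5602. In WT mice Nr4a3 led with 16.2 ± 2.93 CPM per kb, followed by Nr4a1 with 10.9 ± 3.27 and Nr4a2 with 9.33 ± 1.91 (SD, n = 7). The order was the same in mice labelled LPAR2-/-, with 14.1 ± 4.17, 6.95 ± 0.935 and 6.02 ± 0.488 CPM per kb (SD, n = 7). Nr4a3 lay above Nr4a2 in every mouse of both groups. The neighbours Nr4a1 and Nr4a2 overlapped in range in both groups. Within a mouse, Nr4a2 stood at 0.873 ± 0.0629 of Nr4a1 in mice labelled LPAR2-/- (SD, n = 7), below it in 7 of 7. In WT mice this ratio was 0.890 ± 0.189, below 1 in 5 of 7, so that there the pair did not differ beyond its spread. Nr4a3 and Nr4a1 overlapped in range, with Nr4a3 the higher in 7 of 7 and 6 of 7 mice. Against all genes tested, the mean level per kb of Nr4a1 exceeded 56.5% of genes in WT mice and 44.6% in mice labelled LPAR2-/-. For Nr4a2 these shares were 52.1% and 41.1%, and for Nr4a3 67.8% and 63.9%.

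Whether the members rise and fall together was asked within each genotype, on log2 CPM over 7 mice, with exact permutation tests over 5040 pairings. In mice labelled LPAR2-/- Nr4a1 and Nr4a2 went together, with Pearson's r = 0.89 (exact p = 0.00437, adjusted over 6 relations p = 0.0262) and Spearman's rho = 0.93 (adjusted exact p = 0.0369), and r = 0.82 without the 2 mice farthest from the median of Nr4a1. This call held in 3 of 7 repeats that each left out 1 mouse, where r ran from 0.79 to 0.96. In WT mice the same pair gave r = 0.80 (adjusted exact p = 0.0813) and rho = 0.54, and r = 0.53 without the 2 farthest mice. Mice with high Nr4a1 thus tended to have high Nr4a2, with a relation past the threshold in mice labelled LPAR2-/-. The 2 values of r were not tested against each other.

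For Nr4a3 the values differed in sign between the genotypes, which was not tested. In mice labelled LPAR2-/- it gave r = 0.78 with Nr4a1 (adjusted exact p = 0.0813) and rho = 0.82 (adjusted exact p = 0.0683). With Nr4a2 it gave r = 0.75 (adjusted exact p = 0.0851) and rho = 0.89 (adjusted exact p = 0.0369), so that the rank relation passed the threshold and the linear one did not. Mice 6 and 7 were at the low end of all 3 genes. Without the 2 mice farthest from the median of Nr4a1, here mice 6 and 7, r of Nr4a3 with Nr4a1 was 0.48. The 2 mice farthest from the median of Nr4a2 were mice 3 and 5, and without them r of Nr4a3 with Nr4a2 was 0.63. Mice 6 and 7 stayed in that value. In WT mice Nr4a3 gave r = −0.14 with Nr4a1 (exact p = 0.757, rho = 0.07) and r = −0.68 with Nr4a2 (adjusted exact p = 0.103, rho = −0.64). WT 2 had the highest Nr4a2 and the lowest Nr4a3 of its group, and WT 7 the lowest Nr4a2 and the highest Nr4a3. Leaving out WT 7 turned r between Nr4a3 and Nr4a1 from −0.14 to 0.26.

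**Figure D2:**
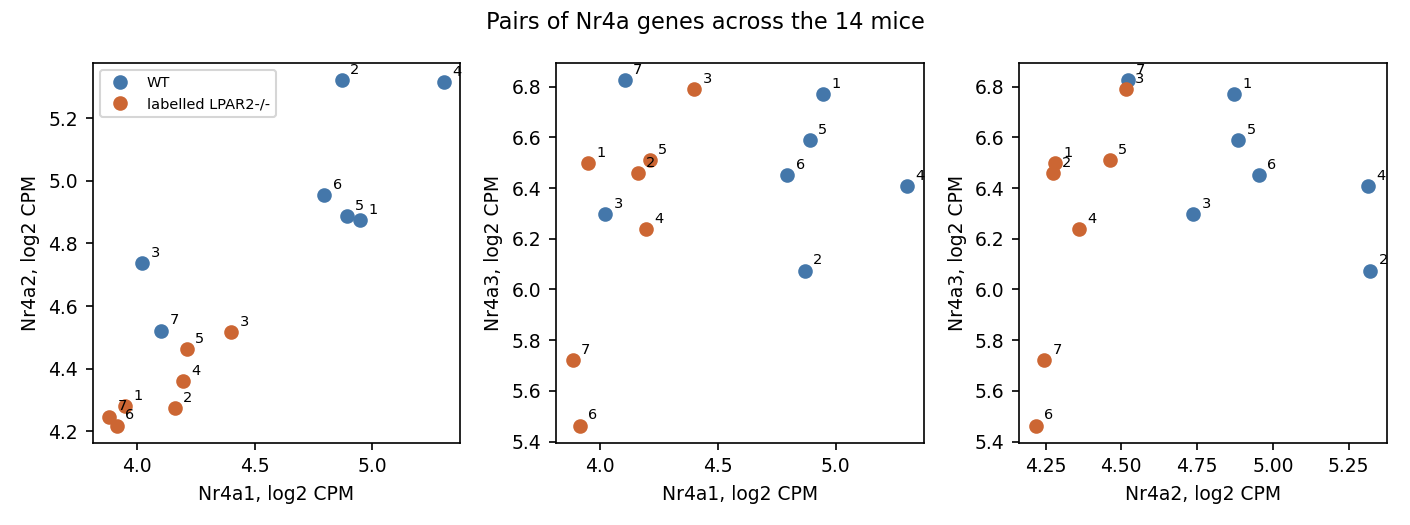
Log2 CPM of each pair of Nr4a genes in the 14 mice, numbered as in the labels, with WT in blue and mice labelled LPAR2-/- in orange. Nr4a1 and Nr4a2 rise together in mice labelled LPAR2-/- (r = 0.89), with r = 0.80 in WT mice, where the relation missed the threshold, whereas Nr4a2 and Nr4a3 slope downward in WT mice (r = −0.68) and upward in mice labelled LPAR2-/- (r = 0.75).

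The genes most like each member were sought over all 14896 other genes tested, by r of the deviations of log2 CPM from the genotype mean over 14 mice. For Nr4a1 these were Egr1 (r = 0.93), an immediate early zinc finger factor, the clock gene Per2 (0.86), Gm15446 (0.83), Nr4a2 (0.81) and Dusp1 (0.80), a phosphatase that switches off MAP kinases. Gm15446 went with Nr4a1 in WT mice (r = 0.91) and the other way in mice labelled LPAR2-/- (r = −0.52). Its level was low, 0 to 3.02 CPM in WT mice and 2.87 to 4.26 CPM in mice labelled LPAR2-/-. For Nr4a2 they were Spty2d1 (0.89), Lysmd3 (0.87), Slc35d1 (0.86), Mx2 (0.85) and Mtus2 (0.84), and Nr4a1 came at rank 12. The first 3 of these followed Nr4a2 more closely in WT mice (r = 0.96, 0.98 and 0.98) than in mice labelled LPAR2-/- (0.50, 0.33 and 0.27), a difference that was not tested. Mx2 was low, at 0.233 to 1.20 CPM in WT mice and 0.615 to 1.21 CPM in mice labelled LPAR2-/-. For Nr4a3 they were Trps1 (0.97), a GATA-type repressor, the muscarinic receptor gene Chrm3 (0.96), Tnfaip8l3 (0.96), the neurexin gene Nrxn3 (0.95) and Klc1 (0.95), which encodes a kinesin light chain. Nr4a1 and Nr4a2 came far below, at ranks 5227 and 7967, with r of 0.19 and −0.07. Fos, the most widely used marker of recent neuronal activity, came at rank 20 for Nr4a1 (r = 0.74), rank 94 for Nr4a2 (0.70) and rank 8236 for Nr4a3 (−0.09). Within WT mice these values were 0.85, 0.83 and −0.44, and within mice labelled LPAR2-/- 0.40, 0.29 and 0.17. That difference was not tested either.

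The same split appeared across 27 activity-induced transcription factors. With Nr4a1, 14 of 27 gave r above 0.5, beside 2.61% of all genes. With Nr4a2 it was 11 of 27, beside 6.10%, and with Nr4a3 it was 0 of 27, beside 15.6%, with a median r of −0.19. Across 30 activity-induced effector genes, r was above 0.5 for 5 genes with Nr4a1, beside 2.61% of all genes. It was above 0.5 for 7 with Nr4a2, beside 6.10%, and for 11 with Nr4a3, beside 15.6%. Among the effectors, Nr4a3 was most like Vgf (r = 0.90), which encodes a secreted neuropeptide precursor. These values describe 14 mice, carry no p, and the genes share libraries and depth.

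The members were also compared with markers of the hippocampal subfields within each genotype. These relations were chosen after the data were seen and number 18 (3 members, 3 marker lists, 2 genotypes). Nr4a3 rose with the summed CA3 markers Bok, Cpne4 and Grik4, with r = 0.95 in WT mice (exact p = 0.00258, adjusted over the 18 relations p = 0.025, rho = 0.93) and r = 0.87 in mice labelled LPAR2-/- (adjusted exact p = 0.0375, rho = 0.82). Without the 2 mice farthest from the median of the marker sum, r was 0.86 and 0.77. Against the dentate gyrus markers Prox1, C1ql2, Dsp, Tdo2 and Lct, Nr4a3 gave r = −0.92 in mice labelled LPAR2-/- (adjusted exact p = 0.025, rho = −0.93, r = −0.93 without the 2 farthest mice) and r = −0.61 in WT mice (adjusted exact p = 0.248). Mice 6 and 7 labelled LPAR2-/- had CA3 sums of 258 and 239 CPM, the lowest of their group, and dentate sums of 759 and 762 CPM, the highest of all mice. The 2 farthest mice labelled LPAR2-/- were 3 and 7 for the CA3 sum and 3 and 5 for the dentate sum. The values without them therefore do not leave out mice 6 and 7 together. WT 7, the highest in Nr4a3, had the highest CA3 sum (373 CPM), and WT 2, the lowest WT mouse in Nr4a3, had the lowest WT sum (250 CPM). Leaving out 1 mouse kept r with the CA3 markers between 0.91 and 0.98 in WT mice, with adjusted p from 0.0375 to 0.1 (under the threshold in 4 of 7), and between 0.82 and 0.93 in mice labelled LPAR2-/-, with adjusted p from 0.05 to 0.122 (under the threshold in 0 of 7). With the dentate markers r ran from −0.97 to −0.89 in mice labelled LPAR2-/-, with adjusted p up to 0.117 (under the threshold in 3 of 7).

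The CA1 markers Wfs1, Fibcd1 and Pou3f1 were the third list. With them Nr4a3 gave r = −0.80 in WT mice (adjusted exact p = 0.0421, rho = −0.79, r = −0.49 without the 2 farthest mice) and r = 0.31 in mice labelled LPAR2-/-. This call held in 1 of 7 repeats that each left out 1 mouse, and without WT 2, whose CA1 sum was the highest, r was −0.65 (adjusted exact p = 0.308). Nr4a2 gave r = 0.65 in WT mice (adjusted exact p = 0.192) and r = 0.58 in mice labelled LPAR2-/- (adjusted exact p = 0.251), positive in all repeats that left out 1 mouse. For Nr4a1 the values were 0.18 and 0.55, and neither passed the test.

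With the CA3 and dentate markers, r of Nr4a2 had opposite signs in the genotypes, a difference that was not tested. Nr4a2 gave r = −0.76 with the CA3 markers in WT mice (adjusted exact p = 0.105) and r = 0.59 in mice labelled LPAR2-/-. With the dentate markers Nr4a2 gave r = −0.89 in mice labelled LPAR2-/- (adjusted exact p = 0.0375, r = −0.61 without the 2 farthest mice) and r = 0.37 in WT mice. This call held in 1 of 7 repeats that each left out 1 mouse, with adjusted p up to 0.118. For Nr4a1 the values with the CA3 markers were −0.33 in WT mice and 0.68 in mice labelled LPAR2-/-, and those with the dentate markers 0.07 and −0.79 (adjusted exact p = 0.105, rho = −0.89). None of these passed the test, and the WT value with the dentate markers was −0.15 without WT 7. With the log2 ratio of CA3 to dentate markers as a covariate, also chosen after the data were seen, the genotype log2 fold change was −0.64 for Nr4a1 (edgeR adjusted p = 0.0400), −0.64 for Nr4a2 (0.00299) and −0.11 for Nr4a3 (0.381). This fit called 1732 genes in all, against 1009 without the covariate. Whether the dissected share of each subfield set the levels of Nr4a3 was not tested.

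**Figure D3:**
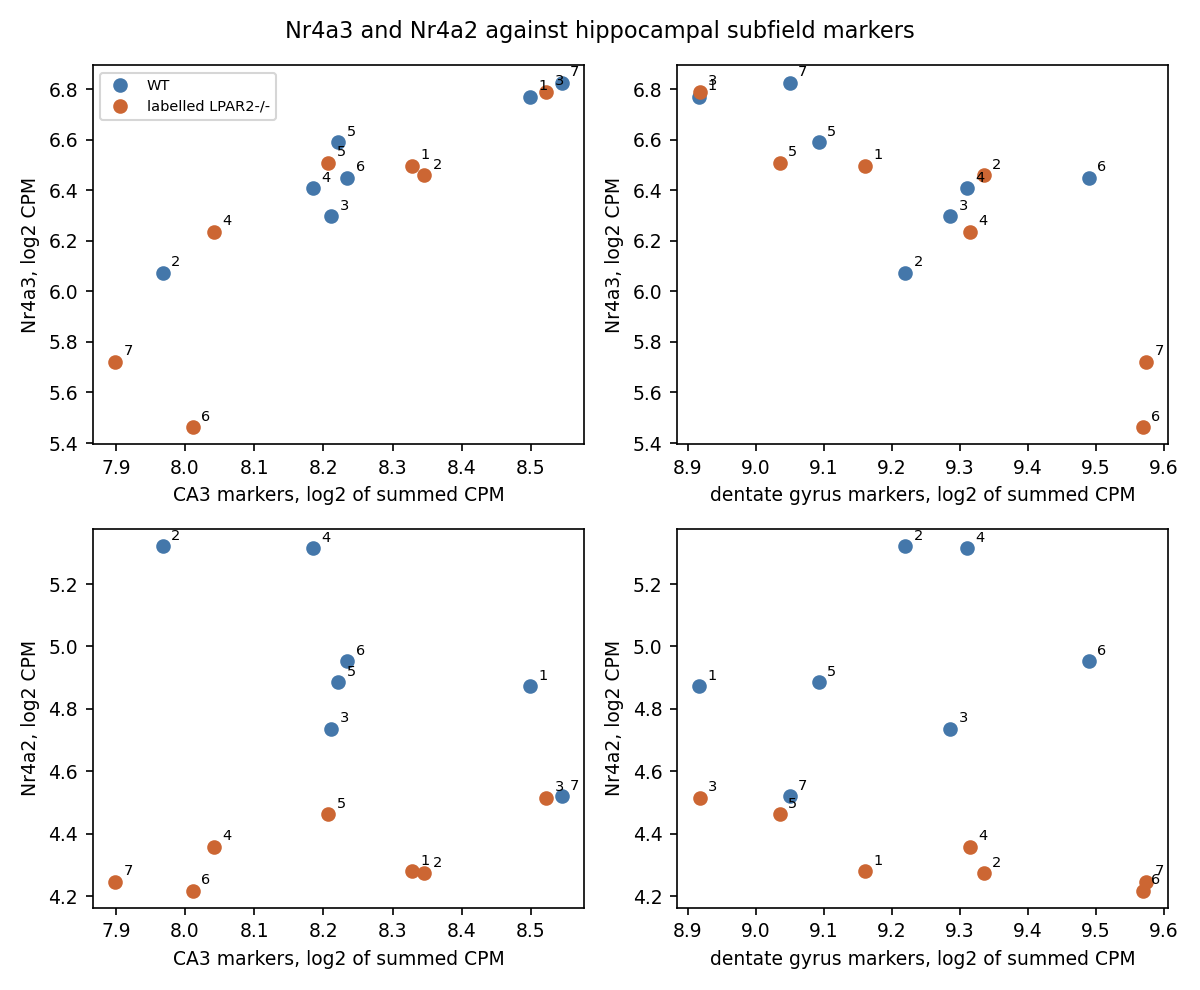
Log2 CPM of Nr4a3 (top) and Nr4a2 (bottom) against the log2 summed CPM of CA3 markers (left) and dentate gyrus markers (right) in the 14 mice, numbered as in the labels, with WT in blue and mice labelled LPAR2-/- in orange. Nr4a3 climbs with the CA3 markers in both groups (r = 0.95 and 0.87), and mice 6 and 7 labelled LPAR2-/- lie at low Nr4a3 and high dentate markers.

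Other cells that could bring Nr4a transcripts were checked by their markers, and the summed levels overlapped between the genotypes for all 16 lists. The medians were not always alike: the meningeal markers summed to a median of 105 CPM in mice labelled LPAR2-/- and 51.2 CPM in WT mice, and the striatal markers to 41.9 and 34.7 CPM, and their part in the Nr4a values was not tested. Pan-neuronal markers summed to 5294 to 6729 CPM in mice labelled LPAR2-/- and 5488 to 6840 CPM in WT mice. The 7 markers of the claustrum and deep cortical layers, where Nr4a2 is high, summed to 88.9 to 99.6 CPM in mice labelled LPAR2-/- and 76.9 to 92.2 CPM in WT mice, with 0 of 7 genes called. The medians of these sums were 95.7 CPM in mice labelled LPAR2-/- and 84.8 CPM in WT mice. The median log2 fold change of the 7 genes was −0.00704, and their part in the level of Nr4a2 was not tested. Of the 5 markers of midbrain dopamine neurons, Th had 0 to 3 counts, Pitx3 and En1 0 to 1, Slc6a3 2 to 16 and Slc18a2 233 to 378 counts in any mouse. Of the blood markers, Hbb-bs and Hba-a1 had 0 counts, which allows up to 3, and Alas2 had 17 to 73 counts. Monocyte genes, which can carry Nr4a1, had at most 29 counts. Microglial markers summed to 304 to 373 CPM in mice labelled LPAR2-/- and 301 to 366 CPM in WT mice, with 0 of 5 called. Over all 16 lists the called genes were Tdo2 of the dentate gyrus (higher, log2 fold change 0.45, adjusted p = 0.0244) and Lum of the meninges (higher, 0.54, adjusted p = 0.0132).

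Other genes that neuronal activity switches on were compared next. Of 27 activity-induced transcription factors 10 were lower and 0 higher in mice labelled LPAR2-/- (37% called, against 6.77% of all genes), and the median log2 fold change was −0.30 against 0.00292 over all genes. Fosb fell from 15.1 ± 5.10 to 5.48 ± 0.878 CPM (SD, n = 7), with a log2 fold change of −1.46 (SE 0.199, edgeR adjusted p = 0.000700), and Fos from 13.5 ± 6.86 to 3.71 ± 1.27 CPM, with −1.86 (SE 0.352, edgeR adjusted p = 0.00781). Both are partners of Jun in the AP-1 factor, and neither overlapped between the groups. Egr2 (−2.50, adjusted p = 0.00441) and Npas4 (−1.19, adjusted p = 0.00537) were lower too, as were Fosl2, Atf3, Crem, Klf10, Csrnp1 and Nfil3. Egr1, which tracked Nr4a1 most closely, had 38.2 ± 5.54 CPM in mice labelled LPAR2-/- and 54.9 ± 14.2 CPM in WT mice (SD, n = 7) and missed the threshold (log2 fold change −0.52, edgeR adjusted p = 0.0586). For Jun, the most abundant gene of the list that was not called, the value was 0.14 (adjusted p = 0.268). The log2 fold changes of Nr4a1 and Nr4a2 (−0.65 and −0.63) were smaller in size than those of Fosb, Fos, Egr2 and Npas4, without a test of the difference.

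Of 30 activity-induced effectors, the genes through which activity alters synapses and feedback, 7 were lower and 0 higher (23.3% called, against 6.77% of all genes, median −0.19). Arc, which governs the removal of AMPA receptors, fell from 75.2 ± 21.4 to 39.1 ± 10.2 CPM (SD, n = 7), with a log2 fold change of −0.94 (SE 0.201, edgeR adjusted p = 0.0155, and 0.0670 with the mouse number as a block). Cdkn1a, a brake on the cell cycle, had −1.02 (adjusted p = 0.000505), the phosphatase gene Dusp5 −1.07 (0.00799) and the pentraxin gene Nptx2 −0.72 (0.0101), and Rgs4, Dusp1 and Sik1 were lower too. Dusp1 passed in 5 of 14 fits that each left out 1 mouse and lost its call with the block, limma, upper quartile scaling, no filter (adjusted p up to 0.0587) and with mice 6 and 7 labelled LPAR2-/- left out (0.118). The study named Fos, Fosb, Arc, Fosl2, Egr2, Npas4, Nr4a1, Nr4a2 and Creb1 from these same mice, so that these lists are no independent evidence of their direction.

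**Figure D4:**
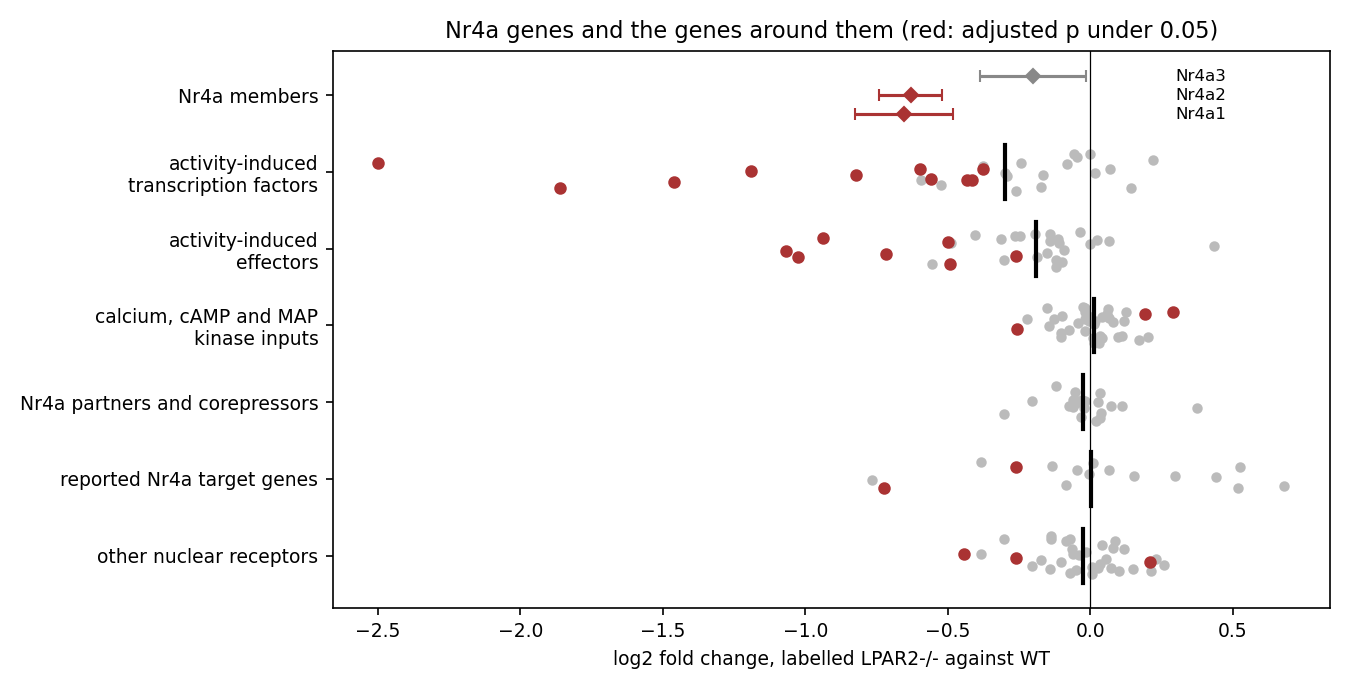
Log2 fold change (labelled LPAR2-/- against WT, horizontal axis) of the 3 Nr4a genes with their SE and of the tested genes of 6 lists, 1 point per gene, red where the adjusted p is under 0.05 and grey otherwise, with black bars at the medians. The called genes of the activity-induced transcription factors and effectors lie to the left of 0, while the medians of the other 4 lists lie between −0.03 and 0.01.

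The signals that lead to Nr4a transcription showed no common direction. Of 38 genes of the calcium, cAMP and MAP kinase inputs, 1 was lower and 2 were higher (7.89% called, against 6.77% of all genes, median log2 fold change 0.01). Creb1, whose product binds the TGACG core shown in the windows, fell from 67.5 ± 6.11 to 56.6 ± 5.48 CPM (SD, n = 7), a log2 fold change of −0.26 (SE 0.0664, edgeR adjusted p = 0.0291, 0.0637 with the mouse number as a block, and under the threshold in 6 of 14 fits that each left out 1 mouse). Mapk3, the kinase ERK1, rose from 240.9 ± 15.6 to 294.7 ± 26.3 CPM (SD, n = 7) without overlap, a log2 fold change of 0.29 (edgeR adjusted p = 0.00731). Prkaca, the catalytic subunit of protein kinase A, was higher by 0.19 (adjusted p = 0.0257), and passed in 8 of 14 fits that each left out 1 mouse, but not with mice 6 and 7 labelled LPAR2-/- left out (adjusted p = 0.0659). Camk2a, the most abundant input gene, had −0.00409 (adjusted p = 0.980).

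Proteins that work with the Nr4a receptors were called in no case. Of 22 partners and corepressors, among them the retinoid X receptors with which Nr4a1 and Nr4a2 pair, 0 were called by edgeR, DESeq2 and limma, and 2 had an unadjusted edgeR p under 0.05, against 22.4% of all genes, with a median log2 fold change of −0.03. Genes described as targets of the receptors were likewise not shifted together. Of 19 such genes 16 were tested, 2 were lower and 0 higher (12.5% called, against 6.77% of all genes, median 0.00333). Hspa5, the chaperone BiP of the endoplasmic reticulum, fell from 414 ± 108 to 250.8 ± 28.7 CPM (SD, n = 7), a log2 fold change of −0.72 (SE 0.151, edgeR adjusted p = 0.0129), and the semaphorin receptor gene Nrp1 had −0.26 (adjusted p = 0.00455). Bdnf, a target gene that activity also induces, had 0.06 (adjusted p = 0.803). Th, Cyp21a1 and Fbp2 were too low to be tested.

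Within the nuclear receptor superfamily the Nr4a genes were compared with 46 others, of which 34 were tested. Of these, 2 were lower and 1 was higher (8.82% called, against 6.77% of all genes, median log2 fold change −0.03). The thyroid hormone receptor gene Thrb was lower (log2 fold change −0.26, edgeR adjusted p = 0.0357), and the clock repressor Nr1d2 was higher (0.21, adjusted p = 0.0224). Thrb lost its call with the mouse number as a block (adjusted p = 0.0502) and with upper quartile scaling (0.0551). It passed in 7 of 14 fits that each left out 1 mouse, and with mice 6 and 7 labelled LPAR2-/- left out together 0 of these receptors were called. Thra, the most abundant of those not called, had 0.10 (adjusted p = 0.131). The log2 fold changes of Nr4a1 and Nr4a2 were thus larger in size than those of Thrb and Nr1d2, again without a test of the difference.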

How the data were processed

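Hippocampal RNA of 7 mice labelled LPAR2-/- and 7 WT mice was sequenced with 1 library per mouse, and genotypes were taken from the labels. Per the study's methods and the file headers, the authors used cutadapt 1.18 for trimming, STAR for alignment to mm10, and featureCounts 1.6.3 for counting reverse-strand reads on exons. The deposited counts carry no normalization and were used as they stand, with the deposited exon length per gene. A deposited table of normalized values (DESeq2 1.22.2) was not used. The tools were edgeR 4.0.16, DESeq2 1.42.0 and limma 3.58.1 (R 4.3.3) and scipy 1.17.1 (Python 3.11.15). Genes passing filterByExpr (14897 of 24421) were normalized by TMM and tested by edgeR's quasi-likelihood method (robust), with Benjamini-Hochberg adjustment over all of them and a threshold of 0.05. Log2 CPM had a prior count of 2. CPM came from 15434620 to 23258949 counts per mouse, and limits from counts cover counting error only.

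Members and lists were chosen with earlier results of these data known. Genes were named by rule: members, Lpar2, the 5 genes most like each member, and in each list the called genes with the 4 largest changes and the most abundant gene not called; other called genes are given by name alone, and Egr1 and Dusp1 also as list members. Marker genes are named after their values were seen, and 2 genes that the rule names are not reported here. Motifs were searched on both strands. After removal of genotype means, same-numbered mice correlated from −0.33 to 0.31, with 3 of 7 above 0.1, and were not treated as pairs. Among the 42 pairs of libraries within a genotype none was a copy, the smallest chi-square divided by its degrees of freedom being 3.35. The edgeR, DESeq2 and limma fits were tested on simulated counts, and the exact permutation tests on made-up values. The motif search, the ranking of similar genes and the fit with the marker covariate were not tested in this way. The labels do not say whether mice shared litters or days, and p-values measure the spread between these mice. The alternatives were DESeq2, its size factors, upper quartile scaling, no filter, at least 10 counts in every library, limma, the mouse number as a block, a prior count of 0.5, each mouse left out, and those named above as chosen after the data were seen.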

Additional observations from a re-analysis of the deposited data

Results flagged for a closer look

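In 6 of 118 groups of 7 mice that were examined, 1 mouse lay apart from the others, judged by its gap to the nearest mouse relative to the range of the group, and chance alone gives about 1 in 20. None of the 3 Nr4a genes was among them. Egr2 was 1.34 CPM in LPAR2-/- 7, against at most 0.579 CPM in the other mice labelled LPAR2-/-. The choroid plexus markers summed to 286 CPM in LPAR2-/- 2 (next 50.7), the oligodendrocyte markers to 3442 CPM in LPAR2-/- 3 (next 1706), the CA1 markers to 205 CPM in WT 2 (next 95.7), the monocyte markers to 2.93 CPM in WT 1 (next 0.583) and the midbrain dopamine neuron markers to 11.2 CPM in LPAR2-/- 4 (next 14.5). WT 2, with the high CA1 sum, was also the highest WT mouse in Nr4a2 and the lowest in Nr4a3. Without it, r with the CA1 markers in the other WT mice was 0.45 for Nr4a2 (0.65 with it) and −0.65 for Nr4a3 (−0.80 with it).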

How the results depend on the processing

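The call of Nr4a2 and the lack of one for Nr4a3 held in all alternatives run (for Nr4a3, left-out mice gave −0.30 to −0.10). Nr4a1 missed the threshold with limma (log2 fold change −0.60), with no filter (−0.65), with the mouse number as a block (−0.62, adjusted p = 0.0778) and with mice 6 and 7 labelled LPAR2-/- left out (−0.58), and ranged from −0.75 to −0.54 with each mouse left out; Nr4a3 without mice 6 and 7 was 0.00461. Nr4a1 kept its call with DESeq2, its size factors, upper quartile scaling and at least 10 counts in every library. In the fit with the mouse number as a block, which has no pairing behind it, 272 genes were lower and 314 higher. Leaving out each mouse gave 292 to 725 lower (fewest without WT 2, most without WT 1) and 275 to 660 higher. Upper quartile scaling called 377 lower and 616 higher (62% higher, against 49%), and the covariate of subfield markers 1732 in all (1009 without it). Called genes of the other nuclear receptors numbered 1 with the block, 1 with the upper quartile, 0 without mice 6 and 7 and 1 to 3 with each mouse left out, and of the inputs 1 to 4. With each mouse left out, r of Nr4a1 with Nr4a2 in mice labelled LPAR2-/- was 0.79 to 0.96, r of Nr4a1 with Nr4a3 in WT mice −0.47 to 0.26, and the difference in the log2 ratio of Nr4a1 to Nr4a2 −0.0747 to 0.0568. Near 0, Bdnf ran from −0.00347 to 0.16 and Camk2a from −0.0342 to 0.0231 (0.0151 with the upper quartile). Marker relations that changed sign without 1 mouse were Nr4a1 with CA3 (−0.54 to 0.0376) and dentate markers (−0.15 to 0.29) in WT mice and Nr4a3 with CA1 markers in mice labelled LPAR2-/- (−0.0156 to 0.48). For 25 genes followed outside the family, 477 of 548 values kept direction and call, 59 lost a call, 3 gained one and 9 changed sign. The causes were not tested. Depth limits the genes of a few counts, not the members, which had at least 229 reads per mouse.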
